A study of Homo sapiens with 9 samples.

Results

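Mineral deposition by bone cells depends on a small set of genes that make, move or restrain phosphate, pyrophosphate and the mineral itself. The set described here has 10 genes: ALPL, ENPP1, ANKH, PHOSPHO1, SLC20A1, SLC20A2, NT5E, MGP, BGLAP and IBSP. They were taken by symbol from a deposited expression table of 36385 genes, and each symbol matched 1 entry. RNA of MG-63 cells, an established human osteosarcoma line, was sequenced in 3 groups of 3 libraries that differ in the surface under the cells. The surfaces were uncoated Ti6Al4V (a titanium alloy for implants, called bare alloy here), Ti6Al4V with TiB2 (titanium diboride), and a boronized Ti6Al4V/HA composite (HA coating). The HA coating differs from bare alloy in both boronization and HA, and their parts cannot be told apart in that comparison. All 9 libraries came from day 7 of osteogenic induction, so the bare alloy cells were induced as well. The induction medium held dexamethasone at 100 nM, ascorbic acid at 50 µg/mL and beta-glycerophosphate at 10 mM. The labels leave the TiB2 libraries out of the study's final analysis and place all 9 libraries in the same batch. Whether the libraries of a surface were grown as separate cultures is not stated, so a p-value reflects library-to-library spread only, some of which may be technical.

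Inorganic pyrophosphate blocks the growth of calcium phosphate crystals, and mineral forms where it is removed and phosphate is supplied. ENPP1, a membrane enzyme, makes extracellular pyrophosphate from ATP, ANKH takes part in the release of ATP and pyrophosphate from the cell, and ALPL, the tissue-nonspecific alkaline phosphatase on the surface of osteoblasts and their matrix vesicles, splits pyrophosphate to phosphate. ALPL also splits beta-glycerophosphate, the organic phosphate in osteogenic medium.

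Stretches upstream of the deposited gene starts of ALPL, ENPP1 and ANKH are shown because these 3 genes take part in the supply and removal of extracellular pyrophosphate. They are RefSeq sequences on GRCh38.p14, written 5′ to 3′ on the gene's strand, with the GC box GGGCGG in capitals on either strand (CCGCCC on the other). ALPL lies on the plus strand (chr1:21509173-21509371), ENPP1 on the plus strand (chr6:131807770-131808015) and ANKH on the minus strand (chr5:14871786-14872028).
ALPL: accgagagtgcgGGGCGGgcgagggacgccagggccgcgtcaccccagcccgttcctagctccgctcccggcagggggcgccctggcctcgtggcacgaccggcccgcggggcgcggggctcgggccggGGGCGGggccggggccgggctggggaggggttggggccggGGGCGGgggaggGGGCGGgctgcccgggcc
ENPP1: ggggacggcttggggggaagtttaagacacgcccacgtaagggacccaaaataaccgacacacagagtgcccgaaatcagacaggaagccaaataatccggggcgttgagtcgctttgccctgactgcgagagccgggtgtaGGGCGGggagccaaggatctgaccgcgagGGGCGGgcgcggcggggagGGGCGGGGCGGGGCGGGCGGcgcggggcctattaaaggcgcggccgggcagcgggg
ANKH: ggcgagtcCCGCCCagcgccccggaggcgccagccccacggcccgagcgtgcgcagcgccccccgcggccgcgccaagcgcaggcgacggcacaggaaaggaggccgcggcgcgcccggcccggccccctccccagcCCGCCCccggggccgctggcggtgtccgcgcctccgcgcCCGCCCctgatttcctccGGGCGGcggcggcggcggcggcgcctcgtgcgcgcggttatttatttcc
The ALPL window of 199 bases was 85.4% G and C and held 4 GC boxes, counted on both strands with overlaps allowed. It is 1 of 3 RefSeq windows of ALPL and ends at 21509371, before the deposited start at 21509397. The bases between were not searched. The ENPP1 window of 246 bases was 68.3% G and C and held 6, some of which overlapped. The ANKH window of 243 bases was 82.3% G and C and held 4. At least 1 GC box stood in 34.8% of all 35116 RefSeq promoter windows at the length of the ALPL window, in 42.2% at that of ENPP1 and in 41.8% at that of ANKH. Such shares were counted over the first bases of every window, cut to the length named. The TATA letters TATAAA were on neither strand of the 3 windows, and at the length of the ALPL window they stood in 7.61% of all windows. The RUNX letters TGTGGT were not there either, and stood in 8.95%.

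Libraries held 58464306 to 72542556 counts. Levels below are CPM (counts scaled to library size, with TMM scaling over the 9 libraries), where 3 counts, the upper limit that a count of 0 allows, equal 0.045 to 0.0549 CPM, for counting error only. Changes are log2 fold changes ± SE from edgeR's quasi-likelihood test on the 6 libraries of a comparison, and a gene passed at a Benjamini-Hochberg adjusted p under 0.05 over all genes tested. Bare alloy replicate 1 stood apart in its ribosomal DNA share, 6.48% of counts against 0.0837% to 1.07% in the other 8. T cell markers also parted the libraries: CD3D, CD3E and LCK were at 0 in bare alloy replicate 1 and in all 3 HA libraries, and at 0.893 to 2.72 CPM in the other 5. All 8 listed T cell markers together had 0.439 to 6.72 CPM on bare alloy, 7.46 to 8.15 on TiB2 and, on the HA coating, 0.47 to 0.591. The labels call MG-63 epithelial-like, but 7 mesenchymal and osteoblast line markers had a summed level of 21100 to 23600 CPM on bare alloy, against 10800 to 11600 for TiB2 and 7260 to 12700 for the HA coating. The 7 epithelial markers summed to 143 to 219 CPM over the 9 libraries, nearly all of it keratin, and the defining epithelial genes EPCAM and CDH1 stayed at 0.0958 to 1.16 CPM.

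ALPL, the alkaline phosphatase gene, had much higher RNA on both coatings than on bare alloy. Its level (ENSG00000162551, chr1:21509397-21578410, plus strand) was 1.9, 1.1 and 2.17 CPM in bare alloy replicates 1, 2 and 3. On TiB2 it was 16.2, 11.5 and 11 CPM, and on the HA coating 16, 8.64 and 8.39 CPM. Every coated library lay above every bare alloy library, and replicate 1 of the HA coating lay above the other two. The means were 1.72 ± 0.561 CPM on bare alloy, 12.9 ± 2.87 on TiB2 and 11 ± 4.34 on the HA coating (SD, n = 3 each). ALPL rose 6.38-fold on the HA coating (log2 2.67 ± 0.36, 95% interval 1.86 to 3.49, edgeR adjusted p = 0.00353) and 7.51-fold on TiB2 (log2 2.91 ± 0.27, 2.3 to 3.52, edgeR adjusted p = 8.45e-05). Both changes are measured against the same 3 bare alloy libraries. Between the coatings the difference, HA minus TiB2, was -0.24 ± 0.28 (95% interval -0.87 to 0.4, edgeR adjusted p = 0.758), which does not show that they act alike. Without bare alloy replicate 1 the rise was 2.75 on the HA coating (edgeR adjusted p = 0.0154) and 2.98 on TiB2 (edgeR adjusted p = 0.000319). In such bulk libraries more cells with a transcript and more RNA per cell cannot be told apart.

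The RNA of the genes that supply pyrophosphate was lower on TiB2. ENPP1 (ENSG00000197594, chr6:131808016-131895155, plus strand) stood at 6.93, 4.09 and 6.98 CPM on bare alloy, at 3.21, 2.47 and 3.26 on TiB2 and at 4.82, 4.24 and 4.17 on the HA coating. The TiB2 libraries lay below all others, while the HA libraries overlapped the range of bare alloy. ENPP1 fell 2.01-fold on TiB2 (log2 -1 ± 0.24, 95% interval -1.54 to -0.47, edgeR adjusted p = 0.0137). This call ended without bare alloy replicate 3 (log2 -0.88, edgeR adjusted p = 0.0588) and with limma on log2(FPKM + 1) (adjusted p = 0.0505). The ENPP1 difference on the HA coating was -0.45 ± 0.26 (95% interval -1.03 to 0.13, edgeR adjusted p = 0.296), which did not pass.

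ANKH (ENSG00000154122, chr5:14704800-14871778, minus strand) stood at 151, 137 and 144 CPM on bare alloy, at 104, 105 and 99.8 on TiB2 and at 119, 92.5 and 85.9 on the HA coating. Every coated library lay below every bare alloy library. RBBP4P1 overlaps ANKH on the same strand and had 147 to 354 counts per library, so the assignment of those reads is uncertain. ANKH fell 1.39-fold on TiB2 (log2 -0.48 ± 0.07, 95% interval -0.63 to -0.33, edgeR adjusted p = 0.000911). That call was lost when all 9 libraries shared a fit (edgeR adjusted p = 0.0551). On the HA coating the difference of -0.54 ± 0.17 (95% interval -0.93 to -0.15) missed the threshold with an edgeR adjusted p of 0.0821. It passed without HA replicate 1 (log2 -0.69, edgeR adjusted p = 0.0122) and by DESeq2 (adjusted p = 0.0286). It also passed when all 9 libraries shared a fit (edgeR adjusted p = 0.0247), 3 of 17 alternatives in all. With a GC and length offset it was -0.21 (edgeR adjusted p = 0.309). Without bare alloy replicate 1, 2 or 3 the edgeR adjusted p was 0.255, 0.212 and 0.27. Between the coatings ENPP1 differed by 0.55 ± 0.23 and ANKH by -0.07 ± 0.18 (HA minus TiB2, edgeR adjusted p = 0.393 and 0.894).

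**Figure D1:**
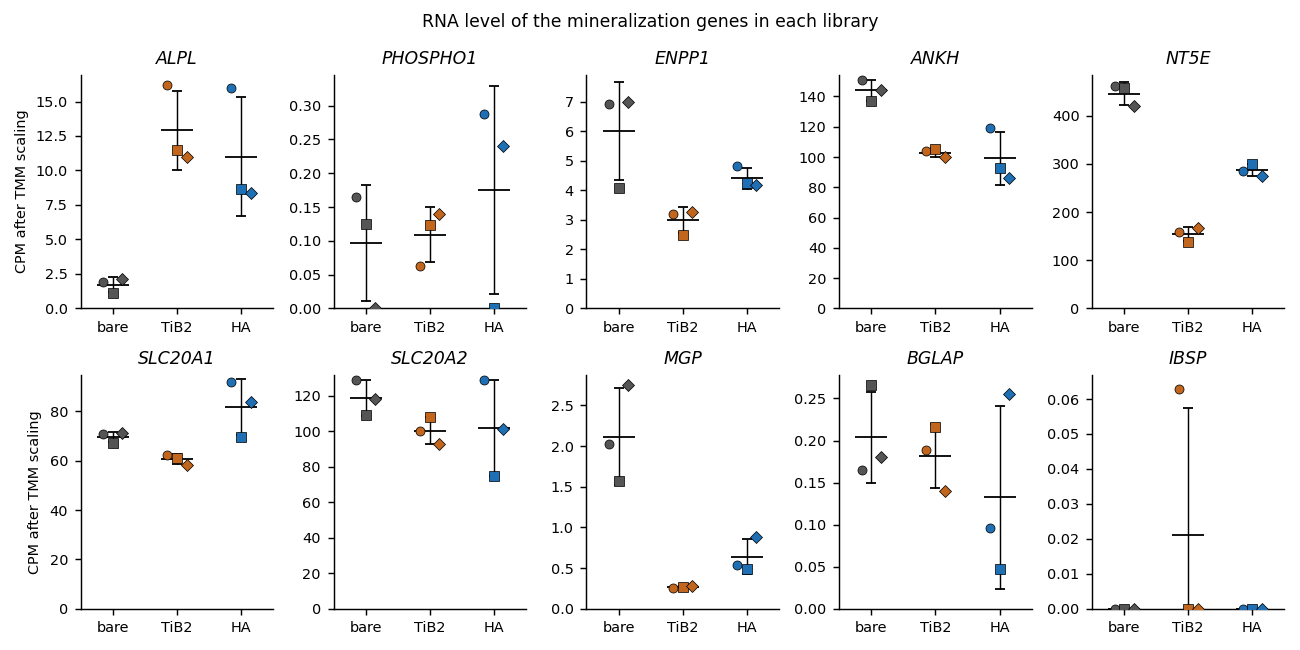
RNA level of each of the 10 genes in CPM after TMM scaling (linear axes from 0, a scale per gene) on bare alloy, TiB2 and HA coating. Circles, squares and diamonds are replicates 1, 2 and 3, and the dash and bar are the mean and SD (n = 3). ALPL lay at 1.1 to 2.17 CPM on bare alloy and at 8.39 to 16.2 CPM on the coatings, while NT5E, ANKH and MGP were highest on bare alloy.

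NT5E, the ecto-5′-nucleotidase CD73, turns AMP into adenosine and phosphate on the outer face of the cell. It had the highest mean FPKM of the 10 genes on every surface. Its level (ENSG00000135318, chr6:85449584-85495791, plus strand) was 462, 457 and 420 CPM on bare alloy, 159, 139 and 168 on TiB2 and 286, 300 and 275 on the HA coating. The 3 surfaces did not overlap, with the HA coating between the other 2. NT5E fell 2.87-fold on TiB2 (log2 -1.52 ± 0.09, 95% interval -1.71 to -1.33, edgeR adjusted p = 5.54e-06) and 1.56-fold on the HA coating (log2 -0.64 ± 0.16, -0.99 to -0.29, edgeR adjusted p = 0.0349).

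The call of NT5E on the HA coating was lost without bare alloy replicate 1, 2 or 3 (edgeR adjusted p = 0.15, 0.167 and 0.146) and without HA replicate 2 (edgeR adjusted p = 0.054), with log2 values of -0.69 to -0.62 in those 4 fits. NT5E was 1.83-fold higher on the HA coating than on TiB2 (log2 0.88 ± 0.17, 95% interval 0.51 to 1.24), with an edgeR adjusted p of 0.0547. That difference passed by DESeq2 (adjusted p = 4.12e-05) and without HA replicate 1 or 3 (edgeR adjusted p = 0.0289 and 0.0483). NT5E is also a surface marker of mesenchymal cells, and the summed mesenchymal markers given above were lower on both coatings too. The part of the mesenchymal markers in the NT5E, ANKH and MGP values, and of the T cell markers given above in those of NT5E, was not tested.

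SLC20A1 and SLC20A2, sodium-coupled transporters that bring phosphate into the cell, did not pass the test on either coating. SLC20A1 (ENSG00000144136, chr2:112645939-112663825, plus strand) stood at 70.6, 67.2 and 71.1 CPM on bare alloy, at 62.3, 61 and 58.4 on TiB2 and at 91.8, 69.6 and 83.9 on the HA coating. SLC20A2 (ENSG00000168575, chr8:42416475-42541926, minus strand) stood at 129, 109 and 118 CPM on bare alloy, at 100, 108 and 92.6 on TiB2 and at 129, 74.8 and 101 on the HA coating. The TiB2 libraries lay below bare alloy for both genes, and the HA libraries overlapped bare alloy for both. SLC20A1 differed from bare alloy on the HA coating by 0.23 ± 0.16 (95% interval -0.13 to 0.59) and SLC20A2 by -0.23 ± 0.21 (-0.71 to 0.25), with edgeR adjusted p of 0.392 and 0.525. On TiB2 the differences were -0.2 ± 0.07 and -0.24 ± 0.09 (edgeR adjusted p = 0.0625 and 0.0706). Both passed on TiB2 by DESeq2 (adjusted p = 0.0466 and 0.0378). SMIM19 overlaps SLC20A2 on the opposite strand and had 779 to 1473 counts per library, so reads of SMIM19 and SLC20A2 may not have been told apart.

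Between the coatings SLC20A1 differed by 0.42 ± 0.17 (HA minus TiB2, 95% interval 0.05 to 0.79, edgeR adjusted p = 0.381) and SLC20A2 by 0.01 ± 0.21 (-0.47 to 0.48, edgeR adjusted p = 0.99). The ratio of the FPKM levels of SLC20A1 to SLC20A2 was 0.638, 0.719 and 0.703 on bare alloy, 0.728, 0.659 and 0.738 on TiB2 and 0.83, 1.09 and 0.976 on the HA coating. The HA libraries had the 3 highest ratios of the 9, a difference that was not tested.

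MGP, matrix Gla protein, is a vitamin K-dependent inhibitor of calcification, and its RNA was lower on both coatings. Its level (ENSG00000111341, chr12:14880864-14885854, minus strand) was 2.03, 1.57 and 2.75 CPM on bare alloy, 0.252, 0.263 and 0.28 on TiB2 and 0.543, 0.485 and 0.885 on the HA coating. These levels rest on 100 to 167 counts per bare alloy library, 16 to 18 per TiB2 library and 31 to 59 per HA library. The 3 surfaces did not overlap. MGP fell 7.92-fold on TiB2 (log2 -2.98 ± 0.32, 95% interval -3.72 to -2.25, edgeR adjusted p = 0.000214) and 3.32-fold on the HA coating (log2 -1.73 ± 0.37, -2.58 to -0.89, edgeR adjusted p = 0.0229).

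The call of MGP on the HA coating was lost without bare alloy replicate 1, 2 or 3 (edgeR adjusted p = 0.0632, 0.0532 and 0.12) and without HA replicate 2 (edgeR adjusted p = 0.0785), with log2 values of -1.9 to -1.5. MGP was higher on the HA coating than on TiB2 by 1.25 ± 0.49 (95% interval 0.15 to 2.35, edgeR adjusted p = 0.381), which did not pass. C12orf60 overlaps MGP on the opposite strand and had 43 to 156 counts per bare alloy library, 53 to 101 on TiB2 and, on the HA coating, 84 to 127. Reads of the 2 genes may not have been told apart, since strand use is not given in the sources used here. Summed markers of chondrocytes, a cell type that makes MGP, were 9.14 to 11 CPM on bare alloy, 3.74 to 3.96 on TiB2 and, on the HA coating, 3.07 to 5.46 (6 of 7 listed genes in the table). SOX9 alone made up most of that sum, at 8.47 to 10 CPM on bare alloy, 3.29 to 3.74 on TiB2 and, on the HA coating, 2.27 to 4.47. The cartilage matrix genes COL2A1, ACAN, COL10A1 and COMP stayed at 0 to 0.463 CPM in every library. MATN3, another cartilage matrix gene, was at 0.379 to 0.914 CPM on bare alloy, 0 to 0.441 on TiB2 and, on the HA coating, 0.285 to 0.611. The part of these markers in the MGP difference was not tested.

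The other matrix genes and PHOSPHO1 were at the edge of detection. BGLAP (ENSG00000242252, chr1:156242184-156243317, plus strand) encodes osteocalcin, the Gla protein of mature osteoblasts. It had 9, 17 and 11 counts on bare alloy, 12, 14 and 9 on TiB2 and 6, 3 and 17 on the HA coating. The surfaces overlapped, and BGLAP differed from bare alloy by -0.62 ± 0.82 on the HA coating (95% interval -2.48 to 1.24, edgeR adjusted p = 0.67) and by -0.16 ± 0.64 on TiB2 (edgeR adjusted p = 0.886). The PMF1-BGLAP readthrough gene, which spans BGLAP on the same strand, had 398 to 1360 counts per library, so the assignment of reads between these 2 genes is uncertain.

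PHOSPHO1, a phosphatase inside matrix vesicles that frees phosphate from phosphocholine and phosphoethanolamine, had 9, 8 and 0 counts on bare alloy, 4, 8 and 9 on TiB2 and 18, 0 and 16 on the HA coating (ENSG00000173868, chr17:49223366-49230787, minus strand). It was at 0 in 1 bare alloy and 1 HA library, and its surfaces overlapped. IBSP, bone sialoprotein, a mineral-nucleating protein of mature osteoblasts, had 4 counts in TiB2 replicate 1 and 0 in the other 8 libraries (ENSG00000029559, chr4:87799554-87812435, plus strand). PHOSPHO1 and IBSP did not pass the filter on low counts and were not tested. No difference in IBSP RNA was detectable at this depth.

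**Figure D2:**
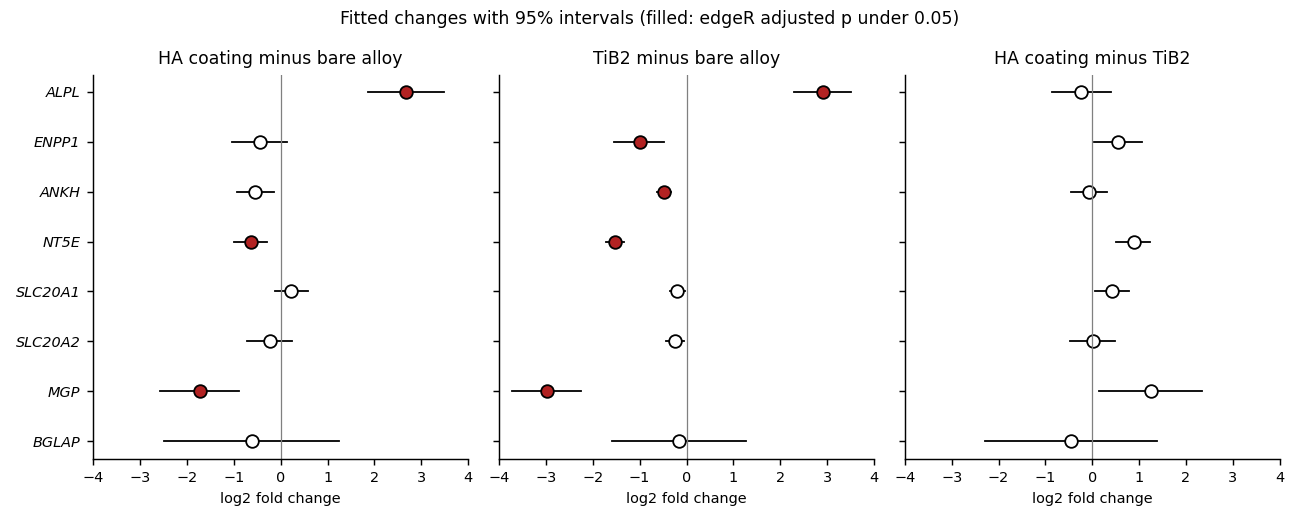
Log2 fold change of the 8 tested genes with its 95% interval in HA coating minus bare alloy, TiB2 minus bare alloy and HA coating minus TiB2. Filled points passed at an edgeR adjusted p under 0.05: 3, 5 and 0 of the 8. ALPL alone is filled to the right of 0, at 2.67 and 2.91.

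Of the 8 tested genes, 1 rose on the HA coating (ALPL), 2 fell (NT5E and MGP) and 5 did not pass. Of all 20117 genes tested there, 9.89% passed, 5.02% higher and 4.88% lower. Their median log2 change was -0.49, against 0.02 over all genes tested. On TiB2 1 rose (ALPL), 4 fell (ENPP1, ANKH, NT5E and MGP) and 3 did not pass, with a median of -0.36 against 0 over all genes. Of all 20152 genes tested on TiB2, 25.1% passed, 12.9% higher and 12.2% lower. The libraries of the compared surfaces did not overlap for 4 of the 8 on the HA coating (34.5% of all genes tested) and for 7 of the 8 on TiB2 (42.2%). Both comparisons use the same 3 bare alloy libraries. Between the coatings edgeR called 0 of the 8, where 0.632% of all 20086 genes passed, and their median difference was 0.22 against 0.02. At an unadjusted p under 0.05 edgeR had 4 (ENPP1, SLC20A1, NT5E and MGP). The share of all genes at that level was not counted, so this number cannot be weighed. By DESeq2 1 of the 8 (NT5E) and 501 of all genes passed. The libraries of the coatings did not overlap for 4 of the 8 (18.1% of all genes tested).

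Levels of different genes were compared per length, as deposited FPKM (fragments scaled to gene length and library size). On bare alloy NT5E led with 92.1 ± 4.74 FPKM, followed by SLC20A2 with 17.3 ± 0.765, SLC20A1 with 11.9 ± 0.705 and ANKH with 10.6 ± 0.403 (SD, n = 3). MGP, ALPL and ENPP1 followed at mean levels of 0.683, 0.538 and 0.486 FPKM, and their libraries overlapped, so their order on bare alloy is not resolved. BGLAP (0.185 FPKM), PHOSPHO1 (0.0344 FPKM) and IBSP (0) came last. ALPL moved away from MGP and ENPP1 on the coatings, to 4.2 ± 0.886 FPKM on TiB2 and 3.53 ± 1.51 on the HA coating, where it stood next below ANKH at 7.89 and 7.42 FPKM. On TiB2 no neighbours among the 9 genes above IBSP overlapped in their FPKM levels. On the HA coating SLC20A1 and SLC20A2 overlapped, as did MGP with BGLAP and BGLAP with PHOSPHO1.

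The FPKM ratio of ALPL, which removes pyrophosphate, to ENPP1, which makes it, was 1.06, 1.03 and 1.19 on bare alloy. It was 19.4, 18 and 13 on TiB2 and 12.9, 7.84 and 7.77 on the HA coating. In deposited FPKM the RNA of the 2 enzymes was thus near parity on bare alloy and not on the coatings, and parity depends on the gene lengths used. The ratio of ALPL to ANKH was 0.0536, 0.034 and 0.064 on bare alloy, 0.66, 0.466 and 0.469 on TiB2 and 0.576, 0.397 and 0.416 on the HA coating. These ratios are descriptions of RNA levels and were not tested.

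**Figure D3:**
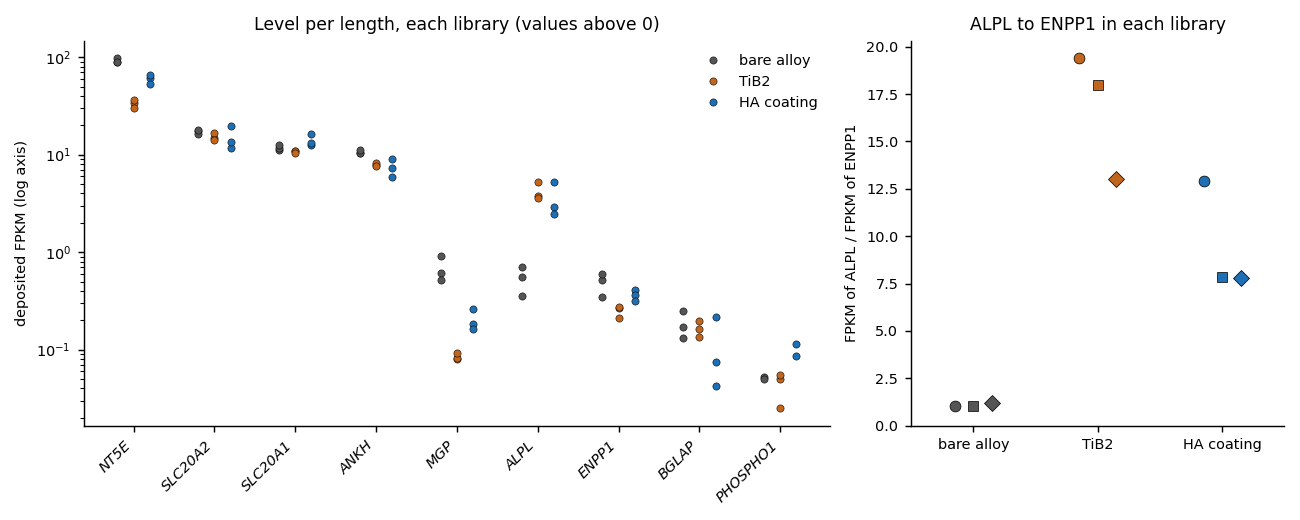
Left, the deposited FPKM of 9 of the genes in each library (log axis; values of 0 and IBSP are not drawn), ordered by mean level on bare alloy. Right, the FPKM of ALPL divided by that of ENPP1 in each library (linear axis from 0; circle, square and diamond are replicates 1, 2 and 3). The ratio lies at 1.03 to 1.19 on bare alloy and at 7.77 to 19.4 on the coatings.

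Other genes of the same processes were taken as 6 lists, with 82 genes in the table. Of these 70 were tested on the HA coating, where 7 rose and 8 fell, and on TiB2 15 rose and 17 fell of 68. Between the coatings 2 of 68 passed, SPP1 and STC1. Over all genes tested 9.89%, 25.1% and 0.632% passed in these 3 comparisons, and the medians of all genes, to be read beside the list medians below, were 0.02 on the HA coating and 0 on TiB2. XPR1, SLC8A1 and STC1 kept their calls against bare alloy on the HA coating without each library in turn, and the other 12 of the 15 lost theirs in at least 1 such fit. With no filter on low counts 10 HA calls against bare alloy ended (edgeR adjusted p = 0.0563 to 0.0933), those of NT5E, MGP, ENPP5, ADK, ADORA1, ANXA7, BGN, GAS6, GGCX and PROS1.

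Of the pyrophosphate and phosphate list, 14 of 20 genes were tested, and on the HA coating 1 rose and 2 fell (median log2 change -0.13). XPR1, the phosphate exporter, stood at 102 to 111 CPM on bare alloy, 47.1 to 51.5 on TiB2 and, on the HA coating, 45.2 to 52.2. It fell 2.16-fold on the HA coating (log2 -1.11 ± 0.15, edgeR adjusted p = 0.00327) and 2.18-fold on TiB2 (log2 -1.12 ± 0.07, edgeR adjusted p = 1.09e-05), with no overlap of either coating with bare alloy. PANX1, a channel that releases ATP, rose from 15.2 to 18.9 CPM on bare alloy to 26 to 29.6 on the HA coating (log2 0.72 ± 0.16, edgeR adjusted p = 0.0273) and 26.9 to 30.1 on TiB2 (log2 0.75 ± 0.1, edgeR adjusted p = 0.000896). ENPP5, a relative of ENPP1, fell 4.01-fold on the HA coating (log2 -2 ± 0.48, edgeR adjusted p = 0.0345), from 1.71 to 2.9 CPM to 0.255 to 1. On TiB2 ENPP5 fell 3.71-fold (edgeR adjusted p = 0.00208). Without 1 bare alloy library the HA calls ended for PANX1 (edgeR adjusted p = 0.136, 0.0912 and 0.154 without replicates 1, 2 and 3) and for ENPP5 (0.0897, 0.131 and 0.0677), and for ENPP5 also without HA replicate 3 (0.082). On TiB2 3 genes of this list rose and 3 fell (median -0.27). One that fell, ENPP3, was named after its values were seen: it had 12, 33 and 30 counts on bare alloy and 0 in each TiB2 library. With 3 counts put in place of each 0 its mean was 8.77-fold lower, a figure that allows for counting error only.

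Of the adenosine and nucleotide list, which continues from the NT5E reaction, 3 of 13 tested genes rose and 0 fell on the HA coating by edgeR (median 0.19), and 6 of 12 rose on TiB2 (median 0.27). DPP4 (CD26), a peptidase that binds adenosine deaminase, stood at 2.39 to 5.43 CPM on bare alloy, 12.9 to 18.1 on TiB2 and, on the HA coating, 10.5 to 13.2. It rose 3.03-fold on the HA coating (log2 1.6 ± 0.3, edgeR adjusted p = 0.0125) and 4.24-fold on TiB2 (log2 2.08 ± 0.27, edgeR adjusted p = 0.000639). ADORA1, an adenosine receptor, rose 1.69-fold on the HA coating (edgeR adjusted p = 0.0346) and 1.68-fold on TiB2 (edgeR adjusted p = 0.00144). ADK, adenosine kinase, rose 1.89-fold on the HA coating (edgeR adjusted p = 0.0354). The HA calls ended for DPP4 without bare alloy replicate 2 (edgeR adjusted p = 0.0624) or HA replicate 2 (0.0571). They ended for ADORA1 and ADK without bare alloy replicate 1, 2 or 3 or HA replicate 3 (edgeR adjusted p = 0.0545 to 0.172), and for ADK also without HA replicate 2 (0.0907). The part of the T cell markers given above in the DPP4 values was not tested.

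Of the mineral-binding and mineral-inhibiting matrix list, 8 of 16 genes were tested. The count of falls was 2 on the HA coating (median -0.55) and 5 on TiB2 (median -0.78). SPARC, osteonectin, a collagen- and mineral-binding protein, stood at 3730 to 4370 CPM on bare alloy, 2270 to 2470 on TiB2 and, on the HA coating, 1430 to 1950. It fell 2.31-fold on the HA coating (log2 -1.21 ± 0.2, edgeR adjusted p = 0.00862, and 0.0517 without bare alloy replicate 2). On TiB2 SPARC fell 1.67-fold (edgeR adjusted p = 0.00076). BGN, the proteoglycan biglycan, fell 2.52-fold on the HA coating (log2 -1.33 ± 0.3, edgeR adjusted p = 0.0275) and 2.02-fold on TiB2 (edgeR adjusted p = 0.000233). The BGN call on the HA coating ended without bare alloy replicate 1, 2 or 3 (edgeR adjusted p = 0.0817, 0.0765 and 0.103) or HA replicate 3 (0.0611). TNC, tenascin C, fell 5.27-fold on TiB2 (log2 -2.4 ± 0.18, edgeR adjusted p = 2.06e-05).

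SPP1, osteopontin, a phosphoprotein that binds mineral and slows its growth and that ALPL can dephosphorylate, parted the coatings. It stood at 51.9, 15.7 and 15.3 CPM on bare alloy, at 15.9, 14.5 and 16.4 on TiB2 and at 49.5, 46.1 and 46.3 on the HA coating. Bare alloy replicate 1 lay with the HA libraries and bare alloy replicates 2 and 3 with TiB2. SPP1 was 3.01-fold higher on the HA coating than on TiB2 (log2 1.59 ± 0.16, edgeR adjusted p = 0.00172; 0.125 when all 9 libraries shared a fit). Against bare alloy it differed by 0.77 ± 0.43 on the HA coating (edgeR adjusted p = 0.28), which did not pass. The ribosomal DNA share and the T cell genes given above set bare alloy replicate 1 apart too, and their part in the SPP1 values was not tested.

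MGP and BGLAP need vitamin K for the carboxylation that lets them bind mineral. The vitamin K and gamma-carboxylation list also holds proteins that are themselves carboxylated. Of its 11 genes, all tested, 1 rose and 3 fell on the HA coating (median 0.02), and 2 rose and 3 fell on TiB2 (median -0.07). GGCX, the gamma-carboxylase, stood at 37.6 to 43.5 CPM on bare alloy, 29 to 30.3 on TiB2 and, on the HA coating, 21.8 to 28.8. It fell 1.6-fold on the HA coating (log2 -0.68 ± 0.17, edgeR adjusted p = 0.038) and 1.38-fold on TiB2 (edgeR adjusted p = 0.00393). NQO1, a quinone reductase, rose 2.13-fold on the HA coating (edgeR adjusted p = 0.0144) and 2.57-fold on TiB2 (edgeR adjusted p = 4.07e-06). The carboxylated proteins GAS6 and PROS1 fell on the HA coating, 2.02-fold and 1.71-fold (edgeR adjusted p = 0.035 and 0.0425). On TiB2 GAS6 and PROS1 fell 2.17-fold and 1.76-fold (edgeR adjusted p = 1.85e-05 and 0.000109). The HA calls of all 4 ended without bare alloy replicate 1, 2 or 3 (edgeR adjusted p = 0.0692 to 0.171), and those of GGCX and PROS1 also without HA replicate 2 (0.0837 and 0.106). The GGCX call ended as well with a GC and length offset (log2 -0.35, edgeR adjusted p = 0.215) and with limma on log2(FPKM + 1) (adjusted p = 0.0814).

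Of 14 matrix vesicle and membrane genes, all tested, 1 rose and 1 fell on the HA coating (median -0.08), and 2 rose and 5 fell on TiB2 (median -0.1). SLC8A1, a sodium-calcium exchanger, fell 6.19-fold on the HA coating (log2 -2.63 ± 0.22, edgeR adjusted p = 0.000382) and 7.99-fold on TiB2 (log2 -3 ± 0.29, edgeR adjusted p = 9.78e-05), from 9.4 to 10.3 CPM to 1.37 to 1.82 and 0.819 to 1.87. ANXA7, an annexin, rose 1.54-fold on the HA coating (edgeR adjusted p = 0.0346), a call that ended without bare alloy replicate 1, 2 or 3 (0.16, 0.142 and 0.196) or HA replicate 2 (0.0719). On TiB2 ANXA7 rose 1.32-fold (edgeR adjusted p = 0.00564). CA12, a membrane carbonic anhydrase, rose 1.49-fold on TiB2 (edgeR adjusted p = 0.000456).

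Of the phosphate hormone list, 10 genes were tested on the HA coating and 1 rose (median 0.08). On TiB2 2 of 9 rose and 1 fell (median 0.4): SLC9A3R1, a scaffold of phosphate transporters, rose 1.33-fold (edgeR adjusted p = 0.0134) and FGFR1, a receptor of FGF23, fell 1.23-fold (edgeR adjusted p = 0.0141; 0.0531 without bare alloy replicate 1 and 0.0562 without bare alloy replicate 3). Neither passed when all 9 libraries shared a fit (edgeR adjusted p = 0.298 and 0.256). STC1, stanniocalcin 1, a secreted regulator of calcium and phosphate, stood at 0.402, 0.485 and 0.428 CPM on bare alloy, at 0.708, 0.386 and 0.668 on TiB2 and at 2.75, 3.01 and 3.21 on the HA coating. The HA libraries lay above all 6 others. STC1 rose 6.75-fold on the HA coating against bare alloy (log2 2.76 ± 0.28, edgeR adjusted p = 0.00105) and was 5.04-fold higher there than on TiB2 (log2 2.33 ± 0.32, edgeR adjusted p = 0.0118). The second call ended without TiB2 replicate 1 or 3 or HA replicate 2 (edgeR adjusted p = 0.0595, 0.0531 and 0.0877). It also ended with no filter on low counts (edgeR adjusted p = 0.0921).

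**Figure D4:**
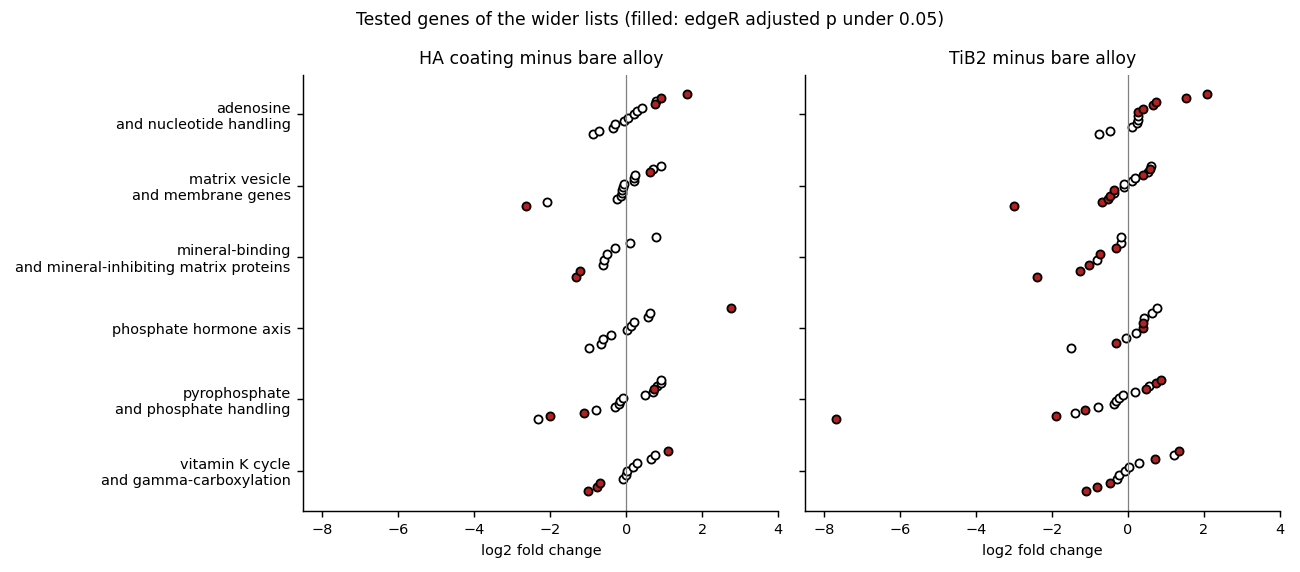
Log2 fold change of each tested gene of the 6 wider lists in HA coating minus bare alloy (left) and TiB2 minus bare alloy (right), each point a gene and filled points past an edgeR adjusted p of 0.05. The point at the far left on TiB2 is ENPP3, at 0 counts in all 3 TiB2 libraries, whose fitted value depends on the prior count and is no measured fold. STC1 is the filled point at 2.76 on the HA coating.

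The genes whose levels followed ALPL most closely over the 9 libraries, by Pearson's r of log2(CPM + 0.5) among 13758 genes, included AP3S2 (r = 0.994), NPTX2 (0.982), TRAF3IP2 (0.981) and PDXK (0.98). PDXK encodes pyridoxal kinase, which makes the vitamin B6 phosphate that ALPL splits outside the cell. PDXK stood at 69.4 to 80.1 CPM on bare alloy, 138 to 150 on TiB2 and, on the HA coating, 126 to 155. The 9 libraries fall into bare alloy and coated groups for these genes as for ALPL, so these values of r are a description of that split over shared libraries.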

How the data were processed

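Groups, replicate numbers, times and doses came from the sample labels. The authors deposited raw read counts and FPKM values per gene and library together, on GRCh38 coordinates. Per the submitters' processing notes the tools were cutadapt 2.10, HISAT2 2.2.1, StringTie 2.1.4, featureCounts 2.0.1 and limma, with no role given to each. No source used here gives strand use or the handling of multi-mapping reads, which makes genes with copies or overlaps uncertain. Among the deposited counts the value 4 was more frequent (11244 values) than 1 (10672), 2 (9280) or 3 (5966), so very low counts are not plain molecule counts.

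Each comparison was fitted on its 6 libraries: filterByExpr, TMM scaling and the quasi-likelihood F test of edgeR 4.0.16 in R 4.3.3. Tests were two-sided, and p-values were adjusted by Benjamini-Hochberg over all genes tested. The SE came from the log2 fold change and its F statistic, and 95% intervals use the t quantile of the fit's degrees of freedom. The deposited FPKM values were used for levels between genes and for limma 3.58.1. Alternatives were RLE scaling, DESeq2 1.42.0, limma on log2(FPKM + 1) and log2(FPKM + 0.1), no filter, a mean FPKM of at least 1, all 9 libraries in a fit, a replicate block, ribosomal DNA genes left out and each library left out. The steps were tested on simulated data with known changes. Far fewer genes were changed there than passed against bare alloy here, so the rates below need not hold for those comparisons. Of 2-fold changes edgeR called 22.7% in HA coating against bare alloy, 53.6% in TiB2 against bare alloy and 24% between the coatings. Of 4-fold changes it called 76%, 75.8% and 70.3%, so many true 2-fold changes can fail to pass. Of the genes left unchanged it called 16, 14 and 7 in the same order, so a call can also be false. GC content and length came from GENCODE 29, and promoters from RefSeq by symbol, with no entry used for SLC20A2 and MGP. Figures used Python 3.11.15, pandas 2.3.3, numpy 2.4.6 and matplotlib 3.10.9, and tables data.table (1.17.8).

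The 10 genes and the lists were chosen with earlier results of these data known. All 10 are named whatever their result, and of each wider list up to 4 genes past the threshold on the HA coating and up to 2 in each other comparison, by adjusted p. Genes like ALPL had a mean of at least 1 CPM. One of the 5 most like it is not reported here.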

Additional observations from a re-analysis of the deposited data

How the results depend on the processing

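Over the alternatives, 854 values were computed for 53 gene changes: 736 kept their direction and side of the threshold, 97 no longer passed, 12 newly passed and 9 changed sign. The 9 belong to 3 changes that passed neither as reported nor in those 9 fits: SLC20A2 between the coatings (0.01; -0.05 by limma with either offset, -0.01 at the FPKM minimum, -0.02 with the replicate block, -0.04 without TiB2 replicate 3 and -0.21 to 0.19 with a library left out), ANKH between the coatings (-0.07; 0.14 with the GC and length offset and -0.23 to 0.01 with a library left out) and BGLAP on TiB2 (-0.16; -0.31 to 0.07 with a library left out). ALPL passed in all 17 alternatives on the HA coating (log2 1.51 to 2.92) and in all 16 on TiB2 (1.75 to 3.12). Of the 10 genes, 3 passed on the HA coating, 1 with no filter on low counts and 1 to 4 with a library left out; 5 passed on TiB2, 4 to 5 with a library left out; and 0 passed between the coatings, 1 each by DESeq2, in the fit of all 9 libraries and with a GC and length offset, and 0 to 1 with a library left out. Of all genes, 1990 passed on the HA coating, 3562 by DESeq2, 1093 with no filter, 3518 in the fit of all 9 libraries and 598 to 4185 with a library left out (857, 598 and 601 without bare alloy replicates 1, 2 and 3, 4185 without HA replicate 1 and 1092 without HA replicate 2). On TiB2 5059 passed, 2132 in the fit of all 9 libraries and 3685 to 4211 with a library left out. Between the coatings 127 passed, 501 by DESeq2, 35 with no filter, 67 in the fit of all 9 libraries, 52 with a minimum mean FPKM of 1 and 49 to 1224 with a library left out (49, 66 and 62 without TiB2 replicates 1, 2 and 3, 1224 without HA replicate 1 and 49 without HA replicate 2). With the replicate number as a block the counts were 1357, 3625 and 195, and of the 10 genes 2, 5 and 0 passed; NT5E on the HA coating was lost (log2 -0.64, edgeR adjusted p = 0.0782). In deviations from the group mean, same-numbered libraries correlated at -0.17 to 0.16 and differently numbered ones at -0.19 to 0.31. With 3 libraries per group these values cannot decide whether the numbers pair the libraries. Some alternatives were chosen after seeing the data. With the GC and length offset 3135 genes passed on the HA coating, and the share of calls that were higher moved from 50.7% to 60.9% there and from 51.3% to 63.1% on TiB2; values for GC content and length were at hand for 96.7% of genes. With bare alloy replicate 1 and HA replicate 3 both left out, 756 genes passed, of the 10 only 1 (ALPL). The cause of these shifts was not tested. Depth limits PHOSPHO1, BGLAP and IBSP, at 0 to 18 counts per library, and MGP on TiB2, at 16 to 18.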
